A study of Mus musculus with 12 samples.

Results

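Alternative exons with intermediate inclusion are exons that only part of the transcripts of their gene contained in the developing mouse lung. They were chosen by their measured inclusion and reads. An exon event of the percent spliced in (PSI) table was taken when every one of the 12 libraries gave it a PSI and a coverage score better than the lowest class, when at least 10 corrected reads lay behind it in every library, and when its mean PSI over the 12 libraries was from 5% to 95%. This rule left 4411 exons of the 192593 exon events and of the 661162 events of all types. PSI is the percentage of the informative junction reads of an event that include the exon, with the rest joining its neighbours directly. Whole lungs of male and female C57BL/6 mice were taken for RNA sequencing before birth (embryonic days E15.5 and E18.5) and after it (postnatal days P5 and P8), with 3 libraries at each time-point and no treatment in the labels. The replicates of a time-point were littermates, so litter and time-point cannot be told apart, and p-values measure the spread between littermates.

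A cassette exon is kept or skipped when the spliceosome joins the exons of a pre-mRNA, and RNA-binding proteins near its splice sites set how often each happens. An exon whose length is a multiple of 3 can be added or removed without a shift of the reading frame, so that both products may be made as proteins. Exons of this kind are common in genes of the cytoskeleton, of cell adhesion and of membrane traffic, and many are regulated together during development. Around birth the lung clears its fluid, begins gas exchange and extends its capillary bed and its alveolar epithelium.

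Event identifiers of the table carry no coordinates, and 14 exons could be placed in GENCODE M21 (mm10) from the exons that hold the RT-PCR primers of the study. For 13 the annotated transcripts differ in whether they hold an exon between these, and this exon was taken. For *Pecam1* a single exon lies between them, which 5 annotated transcripts hold and 0 skip, so the annotation does not show it as alternative. The study had picked all 14 for RT-PCR as changed between E18.5 and P5, so their change is a description here. All 14 had a length that is a multiple of 3, from 21 to 600 bases, while 41.0% of the 162817 internal coding exons of the annotation have such a length. The 11 that lie in a coding sequence and are short enough to be read at a glance are printed, 5′ to 3′ on the strand of the gene, to show what is gained or lost with each switch. Capitals mark the alternative exon and lower case the 15 bases of the neighbouring exons on each side. The first 7 exons rose from E18.5 to P5, as did that of *Pecam1*, and those of *Mbnl1*, *Macf1* and *Hdac7* fell.
*Afdn*, chr17:13848355-13848375, plus strand, 21 bases: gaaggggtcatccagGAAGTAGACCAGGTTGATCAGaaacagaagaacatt
*Kif13a*, chr13:46780626-46780664, minus strand, 39 bases: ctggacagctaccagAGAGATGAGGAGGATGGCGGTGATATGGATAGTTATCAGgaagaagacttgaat
*Plod2*, chr9:92601985-92602047, plus strand, 63 bases: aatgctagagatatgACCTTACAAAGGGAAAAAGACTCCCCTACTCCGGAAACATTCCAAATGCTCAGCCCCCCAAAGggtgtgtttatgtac
*Papola*, chr12:105833100-105833162, plus strand, 63 bases: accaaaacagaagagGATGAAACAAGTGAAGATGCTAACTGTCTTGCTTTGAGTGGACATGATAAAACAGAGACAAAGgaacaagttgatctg
*Rbm26*, chr14:105139091-105139162, minus strand, 72 bases: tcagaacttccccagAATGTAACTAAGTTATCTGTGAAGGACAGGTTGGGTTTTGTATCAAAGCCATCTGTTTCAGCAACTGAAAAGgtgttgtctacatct
*Slain2*, chr5:72965804-72965881, plus strand, 78 bases: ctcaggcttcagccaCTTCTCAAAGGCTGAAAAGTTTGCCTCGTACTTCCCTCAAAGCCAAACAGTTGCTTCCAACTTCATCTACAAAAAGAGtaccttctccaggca
*Palm*, chr10:79816792-79816923, plus strand, 132 bases: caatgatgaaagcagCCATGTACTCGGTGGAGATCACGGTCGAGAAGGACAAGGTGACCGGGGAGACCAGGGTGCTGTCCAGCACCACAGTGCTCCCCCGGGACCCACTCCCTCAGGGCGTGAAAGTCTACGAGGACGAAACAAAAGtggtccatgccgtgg
*Pecam1*, chr11:106681032-106681085, minus strand, 54 bases: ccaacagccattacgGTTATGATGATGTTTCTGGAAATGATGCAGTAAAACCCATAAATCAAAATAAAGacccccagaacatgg
*Mbnl1*, chr3:60614683-60614736, plus strand, 54 bases: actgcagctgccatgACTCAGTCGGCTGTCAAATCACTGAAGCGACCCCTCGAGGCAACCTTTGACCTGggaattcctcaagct
*Macf1*, chr4:123441603-123441665, minus strand, 63 bases: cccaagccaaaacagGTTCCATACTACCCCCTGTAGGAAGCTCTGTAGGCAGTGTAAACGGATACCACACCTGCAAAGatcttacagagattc
*Hdac7*, chr15:97808660-97808770, minus strand, 111 bases: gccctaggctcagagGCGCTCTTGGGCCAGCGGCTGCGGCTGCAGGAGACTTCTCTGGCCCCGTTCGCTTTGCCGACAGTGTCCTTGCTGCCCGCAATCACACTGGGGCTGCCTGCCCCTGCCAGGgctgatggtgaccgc

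The *Afdn* exon, in the adherens junction protein afadin, is the shortest of the 14 and adds 7 codons. Its PSI was 46.7, 12.9 and 63.4% at E15.5, 52.97, 45.4 and 37.7% at E18.5, then 87.8, 85.8 and 89.9% at P5 and 78.5, 83.1 and 79.3% at P8. The P5 libraries lay above all E15.5 and E18.5 libraries, while the E15.5 libraries differed among themselves more than those of any other time-point. The *Slain2* exon, in a protein that promotes microtubule growth, had a PSI of 36.3, 39.04 and 29.9% at E15.5, 41.8, 38.8 and 35.1% at E18.5, then 70.8, 77.2 and 76.02% at P5 and 68.9, 66.5 and 70.4% at P8. Its 6 postnatal libraries did not overlap its 6 embryonic libraries. In *Plod2*, a lysyl hydroxylase that acts on collagen, the exon adds 21 codons and its PSI was 48.8, 49.4 and 43.4% at E15.5, 37.99, 50.5 and 46.9% at E18.5, then 82.1, 89.5 and 81.8% at P5 and 82.4, 75.8 and 81.8% at P8. Here too the embryonic and postnatal libraries were apart, with every embryonic value at 50.5% or below and every postnatal value at 75.8% or above. In *Papola*, a nuclear poly(A) polymerase, the PSI was 55.1, 61.1 and 62.3% at E18.5 and 87.4, 84.1 and 80.3% at P5, and in *Rbm26*, which encodes an RNA-binding protein, it was 43.2, 55.6 and 58.3% at E18.5 and 80.1, 87.8 and 86.8% at P5. In both, the P5 libraries did not overlap those of E18.5. The exon of *Kif13a*, a kinesin motor that carries endosomes, had a PSI of 61.95, 58.8 and 55.1% at E18.5 and 93.3, 79.5 and 79.5% at P5, and its log odds of inclusion changed by 2.05 ± 0.59 (log2 scale, limma, standard error, adjusted p = 0.14), which did not pass the threshold of 0.05 although its minimum value, explained below, was 13.7 points.

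The *Pecam1* exon, in the endothelial adhesion receptor, had a PSI of 75.7, 63.8 and 74.7% at E15.5, 66.5, 68.2 and 73.8% at E18.5, then 84.5, 87.6 and 86.9% at P5 and 86.5, 87.96 and 89.6% at P8. All 6 postnatal libraries lay above all 6 embryonic libraries, by a change from E18.5 to P5 of 16.8 points (log odds 1.47 ± 0.21, limma adjusted p = 0.0016). Its minimum value was 10.99 points, and it fell to 9.97 over all pairs of libraries and to 9.39 and 9.52 without E18.5 replicate 1 and P5 replicate 3. The *Mbnl1* exon of 54 bases, in a splicing factor of the muscleblind family, went the other way, from 36.2, 33.8 and 35.8% at E18.5 to 5.85, 6.92 and 11.96% at P5. In 2 placed exons that are not printed, the PSI from E18.5 to P5 went from 61.4% ± 6.89 to 31.4% ± 4.63 (SD, n = 3) in *Col6a3*, a chain of collagen VI, and from 92.5% ± 1.98 to 59.8% ± 10.5 in *Myo9b*, an unconventional myosin. The *Myo9b* exon is annotated only in a transcript without a coding sequence.

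Most of the 4411 exons lay towards high inclusion, with a median mean PSI of 75.1%. There were 1188 exons (26.9%) with a mean PSI from 5% to under 25%, 497 (11.3%) from 25% to under 50%, 518 (11.7%) from 50% to under 75% and 2208 (50.1%) from 75% to 95%. The median number of corrected reads per exon and library was 119. The libraries held 41337443 to 53901957 reads counted on genes. The median SD of PSI among the 3 libraries of a time-point was 4.84 points, while reads of this number alone would give 2.90 points by binomial counting error. The spread followed the reads: the median SD was 7.01 points in the 1102 exons with the fewest reads (20.4 to 72.9 on average per library) and 3.08 points in the 1103 with the most (225 to 8536). It was 5.56 and 5.19 points at the embryonic time-points (E15.5, E18.5) and 4.20 and 4.67 points at the postnatal ones (P5, P8). The 12 libraries had a median PSI over these exons of 70.1% to 72.9% before birth and 73.5% to 76.3% after birth, so that the embryonic and postnatal libraries did not overlap.

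Postnatal libraries were most alike by the median over pairs. Between P5 libraries the median absolute PSI difference over the 4411 exons was 4.60 to 4.76 points, and between P5 and P8 libraries it was 4.86 to 5.45 points. Between E15.5 and E18.5 libraries it was 5.34 to 7.27 points, within the range spanned by pairs of the same embryonic time-point (5.22 to 6.47) except at its upper end. Across birth it was 6.46 to 7.54 points for E18.5 with P5 and 6.88 to 7.81 for E15.5 with P8. The highest value between E15.5 and E18.5 libraries, 7.27 points, lay within both of these ranges. These values hold counting error, and its part was not tested. P5 replicate 2 and P8 replicate 1, with the fewest reads (medians of 99 and 100), differed by 5.21 points. E15.5 replicates 1 and 2 (medians of 143 and 115 reads) differed by 6.47 points.

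**Figure D1:**
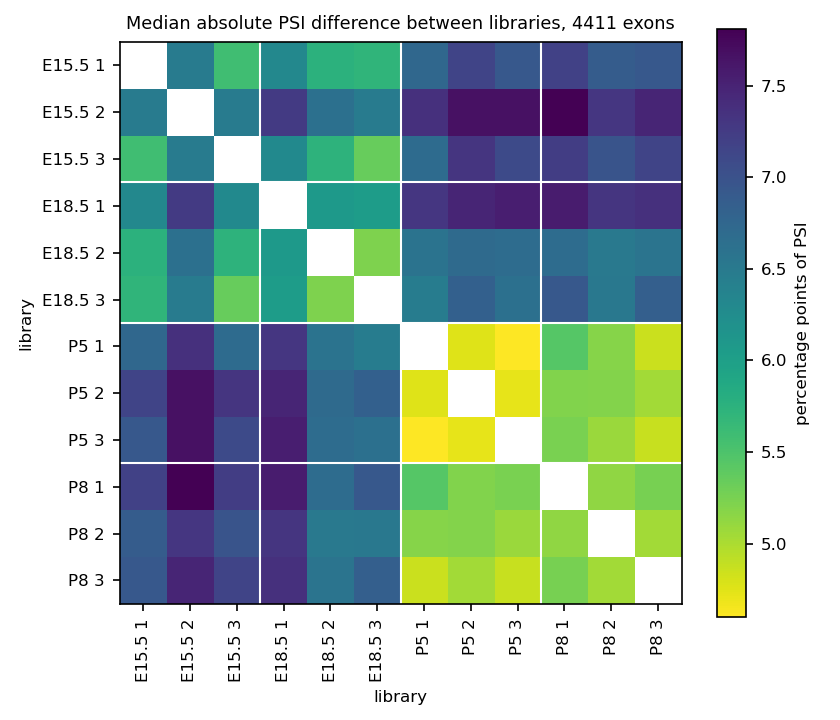
Each cell gives the median over the 4411 exons of the absolute PSI difference between 2 libraries, in percentage points, with the time-point and replicate on both axes and white lines between time-points. Pairs of postnatal libraries lie between 4.60 and 5.45 points, and pairs of an embryonic with a postnatal library between 6.46 and 7.81 points. Pairs of embryonic libraries lie between 5.22 and 7.27 points and overlap both ranges.

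The comparison of time-points asked in which interval the inclusion of these exons changed. From E18.5 to P5, the interval that holds birth, the median absolute change of mean PSI was 5.27 points, against 3.98 in E15.5–E18.5 and 3.18 in P5–P8. The intervals differ in length, E18.5–P5 being the longest, and changes were not scaled to time. The change was at least 20 points in 222 exons (5.03%) from E18.5 to P5, in 101 (2.29%) over E15.5–E18.5 and in 35 (0.793%) over P5–P8. Inclusion was higher at the later time-point in 58.8% of the exons from E18.5 to P5, with a median change of 1.61 points, and in 45.1% and 55.2% in the intervals before and after. The retained introns and the alternative acceptor (3′) and donor (5′) sites picked by the same rule numbered 3983, 3285 and 2302, and their median absolute changes from E18.5 to P5 were 3.49, 3.93 and 4.43 points. Over the 4 time-points the mean PSI of an exon spanned a median of 9.82 points, and it spanned at least 30 points in 149 exons and at least 50 points in 19.

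An exon was called in a comparison when the minimum value (MV) of its PSI difference, the size that the difference exceeds with a probability of 0.95 given the reads of the libraries, was at least 10 points. This is the criterion of the study, recomputed here with libraries matched by replicate number on all 331318 events with enough coverage. From E18.5 to P5, 115 of the 4411 exons (2.61%) were called, 75 with higher and 40 with lower inclusion at P5, where 0.051% of all events tested were called. The interval before, E15.5–E18.5, gave 10 exons (8 lower and 2 higher at its end, all events 0.00996%). The interval P5–P8 gave 6 (2 lower and 4 higher at its end, all events 0.00483%). Both of these intervals are shorter than E18.5–P5. The wider comparisons across birth gave 136 exons for E15.5–P5 (all events 0.064%), 137 for E15.5–P8 (all events 0.0634%) and 116 for E18.5–P8 (all events 0.0507%). In total 263 exons (5.96%) were called in at least 1 comparison, where 0.135% of all events were. Most tested events have a PSI near 0 or 100 and the limits on the mean PSI leave these out, so the share over all events is low for that reason too. Of the 9570 retained introns and alternative splice sites with intermediate inclusion, 185 (1.93%) were called in at least 1 comparison and 54 (0.564%) from E18.5 to P5. The smaller counts moved with how libraries were matched and with single libraries. Over all 9 pairs of libraries, in place of pairs with the same number, there were 5 exons in E15.5–E18.5 and 4 in P5–P8. From E15.5 to E18.5 they were 24, 20 and 23 without E15.5 replicate 1, 2 or 3 and 29 and 30 without E18.5 replicate 2 or 3, and from P5 to P8 they were 10 without P5 replicate 1 and 12 and 10 without P8 replicate 1 or 3.

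Among the exons called from E18.5 to P5, the higher ones went from a median PSI of 33.0% to 75.1% and the lower ones from 71.0% to 42.7%. The change was 14.6 to 60.05 points (median 29.5) in the 75 that rose and 15.2 to 49.4 points (median 27.1) in the 40 that fell, and the mean crossed 50% in 41 of the former and 16 of the latter, so that the more frequent product changed. In all 115, the 3 libraries of E18.5 did not overlap the 3 of P5, a description, since the call was made on these same libraries. At P8, which the call did not use, the mean of 111 of the 115 lay at least as close to P5 as to E18.5, with a median of 94.1% of the change still present. Before birth, 46 of the 115 had moved in the same direction from E15.5 to E18.5. The E18.5 libraries enter both changes, so this count is not independent of the call.

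**Figure D2:**
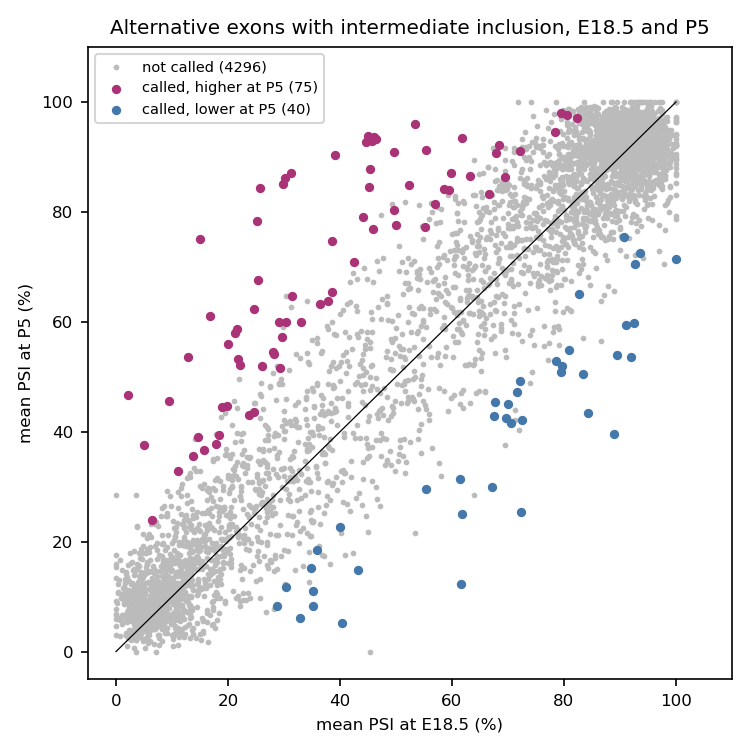
Mean PSI of each of the 4411 exons at E18.5 (horizontal axis) and P5 (vertical axis), in percent, each the mean of 3 libraries, with the line of equal inclusion. Called exons lie away from the line, 75 above it (purple) and 40 below it (blue), and the exons that were not called (grey) crowd at low and high inclusion.

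Calls were most frequent among exons in the middle of the range and among those with many reads. From E18.5 to P5, 52 of the 518 exons (10.04%) with a mean PSI from 50% to under 75% and 37 of 497 (7.44%) from 25% to under 50% were called, against 10 of 1188 (0.842%) below and 16 of 2208 (0.725%) above these limits. When the exons were split into 4 groups by reads, 69 of 1103 (6.26%) were called in the group with the most and 10 of 1102 (0.907%) in the group with the fewest. Since the MV is computed from the reads, these shares describe what could be called at this depth. The mean PSI also holds the E18.5 and P5 libraries, so an exon that moves far between them has a mean towards the middle. The shares by mean PSI are in part fixed by this. VAST-TOOLS sorts exon events by the complexity of their splice patterns. Of the simple type, 69 of 2948 exons (2.34%) were called, beside 16 of 396 (4.04%) of the most complex type. These 16 include the 7 exons of *Aspn*, described below, whose PSI moved together, so the difference in share rests in part on 1 gene.

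**Figure D3:**
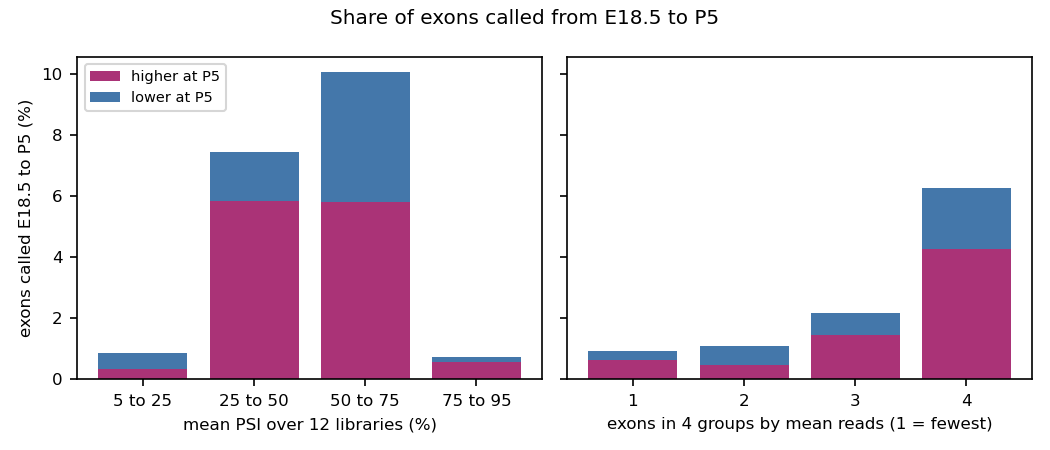
Percent of the 4411 exons called from E18.5 to P5, by mean PSI over the 12 libraries (left) and in 4 groups of mean reads (right, 1 has the fewest), stacked by direction at P5. The share was highest at 10.04% for a mean PSI from 50% to 75% and at 6.26% in the group with the most reads. The mean PSI includes the libraries compared.

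A second test used limma on the log2 odds of inclusion with weights from the reads, fitted over the 13981 events of all types with intermediate inclusion. It called 133 exons from E18.5 to P5 at a Benjamini-Hochberg adjusted p under 0.05, 88 higher and 45 lower at P5, with 1.37% of all events fitted. It called 0 exons in E15.5–E18.5 (0% of all events) and 0 in P5–P8 (0%), where 468 and 221 exons had an unadjusted p under 0.05. The comparisons across birth gave 189 exons for E15.5–P5 (2.11% of all events), 158 for E15.5–P8 (1.7%) and 122 for E18.5–P8 (1.27%). For the 6 postnatal against the 6 embryonic libraries the same fit called 429 exons, 281 higher and 148 lower after birth, with 5.14% of all events. The changes of these 429 ran from 3.60 to 62.6 points, and 233 of them were called by MV in no comparison. From E18.5 to P5, 87 exons were called by both tests, and all 115 exons with an MV of at least 10 had the same direction in limma. Each library carried weight in this test: the 133 became 79, 70 and 77 without E18.5 replicate 1, 2 or 3 and 74, 78 and 71 without P5 replicate 1, 2 or 3. The 189 became 115 without E15.5 replicate 1 or 3 and 105, 108 and 117 without P5 replicate 1, 2 or 3. The 158 became 104 and 97 without P8 replicate 1 or 3, the 122 lay between 64 and 80 without any one E18.5 or P8 library, and the 429 became 285 without E18.5 replicate 3.

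In 324 exons (7.35%) the 6 embryonic and the 6 postnatal libraries did not overlap, in 225 with higher inclusion after birth (all events 0.214%) and in 99 with lower inclusion (all events 0.11%). Among the other event types with intermediate inclusion the same was found for 295 of 9570 events (3.08%). Of these 324 exons, 180 had not been called by MV in any comparison.

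Marker genes of several lung cell types moved across birth together with these exons. The summed level of 5 alveolar type 1 markers was 131 to 193 CPM (counts scaled to the library total) at E18.5 and 1662 to 1830 at P5, that of 6 alveolar type 2 markers 1424 to 2454 and 18346 to 21695, and that of 5 endothelial markers 1076 to 1171 and 2650 to 2761. Between the same time-points, the 6 erythroid markers were at 3682 to 4416 CPM and at 10941 to 18686 CPM, and the 5 myeloid markers at 9.38 to 11.1 CPM and at 98.4 to 147 CPM. The 3 measured neural markers were at 10.3 to 12.97 CPM and at 67.9 to 72.2 CPM, while 4 markers of cycling cells were lower after birth, at 1380 to 1484 CPM and at 521 to 537 CPM. The 4 smooth muscle markers were at 659 to 800 CPM at E18.5 and 682 to 749 at P5. In bulk tissue, a change of splicing within a cell type and a change in the share of cell types cannot be told apart, nor can fewer cells of a type and less RNA per cell. The 5 measured markers of the thymus and of T cells were at 25.5 CPM in E15.5 replicate 2 and 115 and 218 CPM in P8 replicates 1 and 2, and at 0.153 to 9.68 CPM elsewhere. The 5 cardiac markers were at 1109 and 1381 CPM in E15.5 replicates 1 and 2 and at 58.4 to 390 CPM elsewhere, and the 5 skeletal muscle markers ran from 4.48 to 548 CPM with the highest value in P8 replicate 1. Leaving out those 4 libraries of E15.5 and P8 keeps only replicate 3 at each of these time-points, so limma calls without them are not given. Between the 4 embryonic and 4 postnatal libraries left, 700 exons had no overlap. Leaving libraries out can only raise this count, which was 324 with all 12 libraries and 354 to 399 with any 1 left out. The number of libraries was not separated from their choice, and the share over all events was not computed. The part of the cell makeup in any result was not tested.

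Gene symbols were known for 263 of the 4411 exons, in 221 genes, and 257 of these 263 are among the 263 exons called. The symbols come from lists of events that the study called on these same libraries, so the values of named exons describe them and are no independent evidence of a change. The largest rises from E18.5 to P5, 1 exon a gene, were led by *Prickle1*, which encodes a planar cell polarity protein. Its PSI was 21.9, 25.3 and 18.1% at E15.5, 14.7, 14.3 and 16.2% at E18.5, then 71.7, 80.6 and 73.05% at P5 and 62.8, 62.6 and 74.1% at P8. The postnatal libraries all lay far above the embryonic ones, by 60.05 points from E18.5 to P5 (MV 44.03, limma log odds 4.03 ± 0.58, adjusted p = 0.0018). The *Col13a1* exon, in a transmembrane collagen, was at 38.1, 39.5 and 37.8% at E15.5, 26.6, 25.9 and 24.7% at E18.5, then 83.8, 84.2 and 84.9% at P5 and 90.7, 86.97 and 97.5% at P8. The E18.5 libraries lay below those of E15.5, which was not called, and the exon then rose by 58.5 points, with the highest MV in this interval of the exons that have a symbol (52.1 points). In *Palm*, which encodes the membrane-anchored protein paralemmin, the PSI was 21.7, 28.6 and 20.3% at E15.5, 18.9, 25.7 and 30.9% at E18.5, then 76.2, 83.6 and 75.3% at P5 and 64.97, 80.2 and 81.96% at P8. The libraries before birth all lay far below those after birth.

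*Npnt*, which encodes the basement membrane protein nephronectin, had an exon that was close to absent before birth. Its PSI was 2.47, 1.07 and 0.86% at E15.5, 2.07, 1.45 and 2.72% at E18.5, then 47.8, 49.5 and 42.7% at P5 and 51.2, 50.8 and 48.2% at P8. The 6 embryonic and 6 postnatal libraries were far apart, with 237 or more reads in each, and the change from E18.5 to P5 was 44.6 points (MV 38.3). The *Arhgap12* exon went from 36.3, 35.99 and 45.3% at E18.5 to 85.4, 85.7 and 100% at P5 and back to 62.95, 77.7 and 70.8% at P8. Its P8 libraries lay between those of E18.5 and P5 and overlapped neither. A similar course was seen in *Nktr*, which encodes a cyclophilin-related protein, at 35.9, 41.2 and 42.8% at E15.5, 32.1, 23.7 and 20.3% at E18.5, then 67.2, 57.4 and 78.2% at P5 and 45.5, 61.5 and 36.8% at P8. There the P8 libraries overlapped those of P5 and of E15.5. *Syne1*, which encodes a nesprin that links the nucleus to the cytoskeleton, went from 57.5, 55.2 and 47.4% to 100, 100 and 88% with as few as 17 reads in a library. In *Mical3*, an enzyme that oxidises actin, the PSI was 10.2, 52.5 and 31.2% at E18.5 and 71.9, 93.2 and 95.9% at P5, and in *Patj*, a scaffold of the Crumbs polarity complex, it was 47.5, 68.5 and 32.96% at E18.5 and 72.6, 100 and 100% at P5. These 2 had wide replicates, and neither passed limma (adjusted p = 0.13 and 0.12). The MV of *Patj* fell to 1.81 over all pairs of libraries, to -1.77 without E18.5 replicate 1 and to -3.37 without P5 replicate 2.

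**Figure D4:**
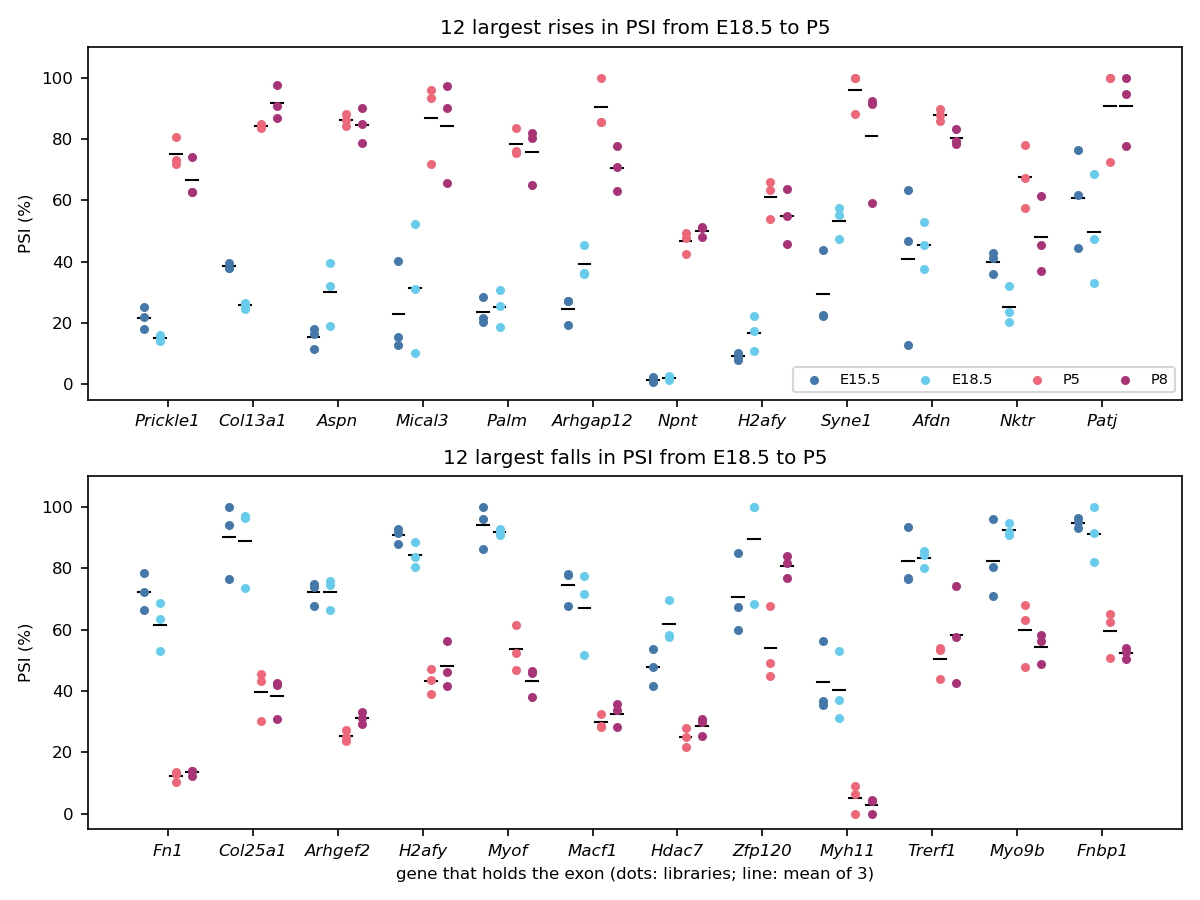
PSI in percent (vertical axis) of the exons with the largest rises (top) and falls (bottom) from E18.5 to P5 among called exons with a gene symbol, 1 exon a gene and 12 in each panel, with a dot for each library and a line at the mean of 3. The *Prickle1* exon rises from 14.3% to 16.2% at E18.5 to 71.7% to 80.6% at P5, and the *Fn1* exon falls from 52.9% to 68.6% to 10.4% to 13.5%.

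The largest fall was in *Fn1*, which encodes the matrix protein fibronectin. The PSI of the exon MmuEX0019423 was 72.2, 66.4 and 78.4% at E15.5, 63.4, 52.9 and 68.6% at E18.5, then 10.4, 13.5 and 12.9% at P5 and 14.04, 14.02 and 12.4% at P8. The embryonic libraries all lay far above the postnatal ones, a change of -49.4 points from E18.5 to P5 (MV 36.2, limma log odds -3.55 ± 0.26, adjusted p = 5.6e-06). In *Arhgef2*, which encodes a protein that binds microtubules, the PSI was 73.9, 75 and 67.7% at E15.5, 75.9, 66.3 and 74.7% at E18.5, then 23.7, 25.1 and 27.4% at P5 and 31.1, 33.3 and 29.1% at P8. The embryonic libraries overlapped each other, the postnatal ones lay apart below them, and the fall from E18.5 to P5 was 46.9 points. *Hdac7*, a class II histone deacetylase with a role in endothelium, had an exon at 53.6, 41.8 and 47.7% at E15.5, 69.6, 57.6 and 58.2% at E18.5, then 21.9, 27.9 and 25.1% at P5 and 29.8, 30.98 and 25.2% at P8. The E18.5 libraries lay above those of E15.5, a difference that was not called, and all postnatal libraries lay below both. The *Macf1* exon printed above, in a protein that crosslinks microtubules and actin, was at 51.9, 71.8 and 77.6% at E18.5 and 28.7, 28.3 and 32.6% at P5.

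*Myof*, which encodes the membrane repair protein myoferlin, went from 92.8, 90.9 and 92.3% at E18.5 to 52.5, 46.7 and 61.5% at P5 and 45.8, 46.4 and 38.05% at P8. In *Col25a1*, another transmembrane collagen, the exon went from 96.4, 73.6 and 96.9% to 45.5, 43.2 and 30.2%. In both, every postnatal library lay below every embryonic one. The exon of *Myh11*, the heavy chain of smooth muscle myosin, was at 56.4, 35.5 and 36.8% at E15.5, 53, 37.1 and 31.2% at E18.5, then 0, 8.93 and 6.46% at P5 and 4.39, 4.05 and 0% at P8. The postnatal libraries lay at 8.93% or below, and the MV of this exon, 17.9, fell to 7.81 when the uncorrected junction reads were used. The smooth muscle marker sums, which include *Myh11* itself, overlapped between E18.5 and P5, and the part of cell makeup was not tested. *Fnbp1*, an F-BAR protein that bends membranes, went from 100, 91.4 and 81.9% to 50.8, 62.5 and 65.04%, with an MV of 10.6 that was 9.92 without E18.5 replicate 2. The zinc finger gene *Zfp120* had an exon at 85.02, 67.3 and 59.9% at E15.5, 100, 68.5 and 100% at E18.5, then 67.8, 44.9 and 49.3% at P5 and 83.9, 76.8 and 81.8% at P8. The P5 libraries lay below those of E18.5 and of P8 but overlapped those of E15.5, and its MV of 11.6 became -1.43 over all pairs of libraries, -5.35 and 7.46 without E18.5 replicate 1 or 3, and -4.32 without P5 replicate 2. From P5 to P8 it was not called (MV 6.39), with an MV of 17.8 without P5 replicate 1. *Trerf1*, a transcriptional regulator, was at 85.5, 80.3 and 84.2% at E18.5 and 43.96, 54.1 and 53.5% at P5, which did not pass limma (adjusted p = 0.12).

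The named exons were sorted into lists by the role of their gene, of which 7 are described. The lists were drawn from genes that the study called, so nearly all members in them were called in some comparison, and nothing can be read from a list lying above the 2.61% called from E18.5 to P5 and the median change of 1.61 points (absolute 5.27 points) over all 4411 exons. Over the 263 exons with a symbol, 114 (43.3%) were called in this interval, the median change was 13.98 points and the median absolute change 19.8 points, and the lists are described beside these values with no test. Among genes of actin, adhesion and junctions there were 33 exons in 28 genes. From E18.5 to P5, 11 of them rose and 9 fell by MV and 19 passed limma, with a median change of 13.9 points. Among those in it are the *Afdn*, *Mical3*, *Patj* and *Macf1* exons given above. Contractile proteins and motors held 11 exons in 8 genes, of which 3 rose and 4 fell (6 by limma, median change 12.6 points). In *Smpx*, a small protein of striated muscle, the PSI was 46.1, 57.1 and 19.4% at E15.5, 20.2, 25.8 and 28.2% at E18.5, then 67.3, 63.3 and 56.2% at P5 and 53.01, 97.6 and 60.5% at P8. Its P5 libraries lay above its E18.5 libraries, yet its adjusted p was 0.48 in limma. Beside it, the skeletal muscle marker sum was 4.48 to 6.21 CPM at E18.5 and 7.72 to 161 CPM at P5, and the cardiac marker sum 58.4 to 94.2 CPM at E18.5 and 119 to 288 CPM at P5. At E15.5 the cardiac sum was 1109, 1381 and 61.5 CPM in replicates 1 to 3, where the PSI was lowest in replicate 3, and the part of these tissues was not tested. From E15.5 to E18.5 the exon was not called (MV -13.6), with an MV of 15.1 without E15.5 replicate 3. *Myo5a*, a myosin that carries vesicles, was at 32.1, 30.1 and 28.9% at E18.5 and 44.9, 70.4 and 78.6% at P5 and was not called in this interval (MV 1.48), although its MV was 21.8 without P5 replicate 1.

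Extracellular matrix genes had 21 exons in 13 genes, of which 11 rose and 5 fell (16 by limma), with the highest median absolute change of these lists, 44.6 points. Of the 21, 7 lie in *Aspn*, which encodes the matrix proteoglycan asporin, and are described below.

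RNA processing genes had 25 exons in 19 genes, of which 9 rose and 5 fell (13 by limma, median change 17.3 points). The exon of *Ddx50*, an RNA helicase, was at 22.4, 30.3 and 19.01% at E15.5, 29.7, 31.5 and 26.2% at E18.5, then 59.4, 64.3 and 56.4% at P5 and 60.5, 43.5 and 49.02% at P8. Its lowest postnatal library lay above its highest embryonic one. Among 28 exons in 26 genes of transcription and chromatin, 8 rose and 5 fell (9 by limma, median change 7.05 points). The exon MmuEX0000783 of *Emsy*, a chromatin regulator, was at 17.8, 25 and 21.2% at E18.5 and 55.6, 47.2 and 71.01% at P5 and did not pass limma (adjusted p = 0.1). Signalling genes had 24 exons in 21 genes, 10 of which rose and 2 of which fell (14 by limma, median change 18.8 points). In *Vegfa*, the growth factor of endothelial cells whose splice forms differ in how they bind the matrix, the exon was at 17.5, 17.5 and 6.97% at E15.5, 10.96, 8.77 and 8.60% at E18.5, then 48.6, 42.01 and 46.3% at P5 and 49.97, 46.95 and 47.1% at P8. All 6 postnatal libraries lay at 42.0% or above and all 6 embryonic ones at 17.5% or below (limma log odds from E18.5 to P5 2.98 ± 0.38, adjusted p = 0.00064). The exon of *Adgrg6*, an adhesion receptor coupled to G proteins, went from 22.4, 26.4 and 17.4% to 49.5, 53.3 and 53.7%. Membrane traffic and organelles held 20 exons in 18 genes, of which 8 rose and 3 fell (11 by limma, median change 14.4 points). There, *Arfip1*, which binds small GTPases at the Golgi, went from 17.9, 8 and 12.9% to 58.6, 43.6 and 58.8%, and *Mia2*, a protein of cargo export from the endoplasmic reticulum, from 21.3, 28.4 and 14.9% to 68.8, 55.8 and 51.6%. In both, the P5 libraries were apart from the E18.5 libraries.

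Few exons were called before birth or between P5 and P8, where the mean PSI moved by at least 10 points in 712 (16.1%) and 433 (9.82%) of the 4411 exons, and none of those named next passed limma in its interval. Among exons called from E15.5 to E18.5 the largest change was in *Clk4*, a kinase of the SR proteins that steer splicing, whose exon MmuEX0011724 was at 63.6, 69.1 and 80.6% at E15.5, 32.8, 45.5 and 24.5% at E18.5, then 36, 40.4 and 40.1% at P5 and 47.3, 35.7 and 42.4% at P8. It fell by 36.9 points before birth (MV 15.3) and its postnatal libraries overlapped those of E18.5. The exon of the related kinase *Clk1* was at 68.3, 74.4 and 72.7% at E15.5, 40, 55.8 and 36.9% at E18.5, then 73.7, 63.5 and 71.9% at P5 and 43.5, 47.8 and 45.6% at P8. It was high at E15.5 and P5 and low at E18.5 and P8, with no overlap between the high and the low libraries, and was called in both intervals (MV 14.04 and 11.4), although the first fell to 9.74 without E15.5 replicate 2 and to 9.88 without E18.5 replicate 1. It changed by 25.5 points from E18.5 to P5 and passed limma (adjusted p = 0.022) but was not called by MV (2.82), which was 19.5 when E18.5 replicate 2 was left out and 12.3 when P5 replicate 2 was. *Krit1*, which encodes a protein of endothelial junctions, was at 79.7, 67.9 and 67.5% at E15.5 and 100, 96.4 and 92.98% at E18.5. *Lcorl*, a nuclear regulator, went from 88.7, 88.02 and 74.8% to 51.8, 56.5 and 57.8% and then to 100, 82.6 and 91.3% at P5. The scaffold gene *Cask* had an exon at 43.5, 83.2 and 75.5% and 23.8, 41.6 and 53%, which overlapped, and its MV of 13.3 fell to -10.1 over all pairs, to -1.16 and -12.0 without E15.5 replicate 2 or 3 and to -11.7 without E18.5 replicate 1.

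Among those called from P5 to P8 that have a symbol the largest change was in *Suco*, a protein of the endoplasmic reticulum, whose exon MmuEX0002765 was at 19.99, 0 and 21.5% at E15.5, 13.3, 11.6 and 14.1% at E18.5, then 30.9, 33.3 and 31.5% at P5 and 54.95, 59.4 and 63.6% at P8. The P5 libraries lay above all embryonic ones, a difference from E18.5 that was not called, and the P8 libraries lay above those of P5. Its MV of 12.5 was 8.75 with uncorrected junction reads. The 3 exons that follow had a smaller margin over the MV limit. For *Mtss1l*, which encodes a membrane and actin regulator, the PSI was 48.7, 46.5 and 49.8% at P5 and 18.49, 32.1 and 20.7% at P8, with an MV of 10.1 that fell to 0.340 with uncorrected reads and to 9.90, 9.72 and 9.73 without P5 replicate 1 or P8 replicate 1 or 3. The *C330018D20Rik* exon was at 60.5, 68.2 and 74.9% and 85.8, 100 and 96.3%, and its MV of 12.3 fell to 7.62 over all pairs and to 5.75, 9.67 and 6.16 without P5 replicate 1 or P8 replicate 2 or 3. In *Ktn1*, a kinesin-binding protein of the endoplasmic reticulum, the exon MmuEX0025961 was at 45.5, 55.9 and 39.7% and 64.98, 73.8 and 62.9%, with an MV of 10.4 that fell to 3.45 over all pairs and to 5.35, 3.72 and 1.96 without P5 replicate 1, P5 replicate 3 or P8 replicate 2.

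In 26 genes more than 1 exon had a symbol, 68 exons in all, and these show how switches within a gene were arranged. In *H2afy*, a gene of a histone variant with a pair of mutually exclusive exons, MmuEX0022308 was at 92.8, 91.6 and 87.97% at E15.5, 80.4, 83.6 and 88.6% at E18.5, then 43.5, 39.2 and 47.3% at P5 and 46.2, 56.5 and 41.6% at P8. Its partner MmuEX0022309 was at 8.08, 8.93 and 10.4% at E15.5, 22.2, 17.3 and 10.8% at E18.5, then 63.5, 65.8 and 53.8% at P5 and 54.9, 45.6 and 63.8% at P8. They mirrored each other: their PSI added to 98.3% to 107% in every library (Pearson r = -0.997 over the 12 libraries). In a mutually exclusive pair, a transcript that includes an exon skips its partner, so the mirroring follows from the pairing. It is a description, as are the sums of the pairs below. The first went from 84.2% ± 4.12 to 43.4% ± 4.08 (SD, n = 3, limma adjusted p = 9.3e-05), so the form that was minor before birth became the more frequent one at P5 in all 3 libraries. The exon pair of *Actn1*, which encodes the actin crosslinker alpha-actinin, added to 98.5% to 107.9%, with MmuEX0003623 at 77.4, 80.5 and 77.8% at E18.5 and 54.4, 53.4 and 51.05% at P5 and MmuEX0003624 at 26.1, 25.1 and 27.4% at E18.5 and 49.4, 49.3 and 56.9% at P5. The same arrangement held in *Tpm1*, which encodes tropomyosin. Its exons MmuEX0048597 and MmuEX0048598 added to 101% to 104% and changed by -17.3 and 16.7 points, and MmuEX0048594 and MmuEX0048595 added to 99.7% to 103.3% and changed by -9.88 and 12.6 points, which limma called (adjusted p = 0.008 and 0.0018) and MV did not. In *Fgfr3*, a receptor of fibroblast growth factors, MmuEX0019169 fell from 58.1% ± 8.66 to 31.9% ± 4.45 and MmuEX0019170 rose from 45.9% ± 6.99 to 76.8% ± 1.98 (limma adjusted p = 0.014 and 0.008), with sums of 99.4% to 115%. The MV of the first was 7.18, and it passed 10 over all pairs (10.3) and without E18.5 replicate 3 (21.8) or P5 replicate 3 (14.6). In *App*, which encodes the amyloid precursor protein, MmuEX0005607 was at 63.5, 69.1 and 70.2% at E18.5 and 43.2, 41.8 and 43.5% at P5 and MmuEX0005609 at 23.1, 28.2 and 22.6% at E18.5 and 43.7, 43.2 and 44.1% at P5. Their sums were 83.5% to 101%, and 1244 or more reads lay behind each value.

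Other genes moved several exons the same way. The second *Fn1* exon, MmuEX0019422, was at 73.9, 83.1 and 77.8% at E15.5, 74.7, 63.95 and 70.5% at E18.5, then 41.7, 42.4 and 43.4% at P5 and 39.8, 37.8 and 40.9% at P8. It fell with the first but remained at about 40% after birth. The 3 exons of *Mbnl1* all fell from E18.5 to P5, by 30.5, 22.3 and 27.02 points, and the pair in its relative *Mbnl2* changed by -20.6 and -13.6 points. All but the last of these 5 were called. The MV of MmuEX1016906 fell to 7.73 over all pairs and to 6.13 and 6.40 without E18.5 replicate 2 or P5 replicate 1. MmuEX0028104 was not called (MV 8.43) although it passed limma (adjusted p = 0.038). In *Macf1* MmuEX0027471 and MmuEX0027469 changed by -17.1 and -20.97 points, and the second was called, while the first had an MV of 4.18 that was 13.5 without E18.5 replicate 2. A pair of *Srsf4* exons, in a gene of an SR splicing factor, rose together from 11.1% ± 2.228 and 13.8% ± 4.83 to 32.9% ± 7.34 and 35.7% ± 5.03. Their MV of 10.4 and 15.3 fell below 10 without single libraries, to 8.22 and 9.33 without E18.5 replicate 1, and for the first to 8.01 and 9.88 without P5 replicate 2 or 3 and to 8.92 over all pairs. In *Epb41*, a protein of the membrane skeleton, MmuEX0016976 fell from 35.1% ± 5.53 to 11.05% ± 2.08 while MmuEX0016979 rose from 18.9% ± 1.82 to 44.5% ± 7.94, with sums of 41.7% to 62.4%. In *Rnps1*, a protein of the exon junction complex, MmuEX0040248 fell by 27.7 points and MmuEX0040247 changed by 15.97 points, which was not called with 12 libraries but had an MV of 13.004 without P5 replicate 1.

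**Figure D5:**
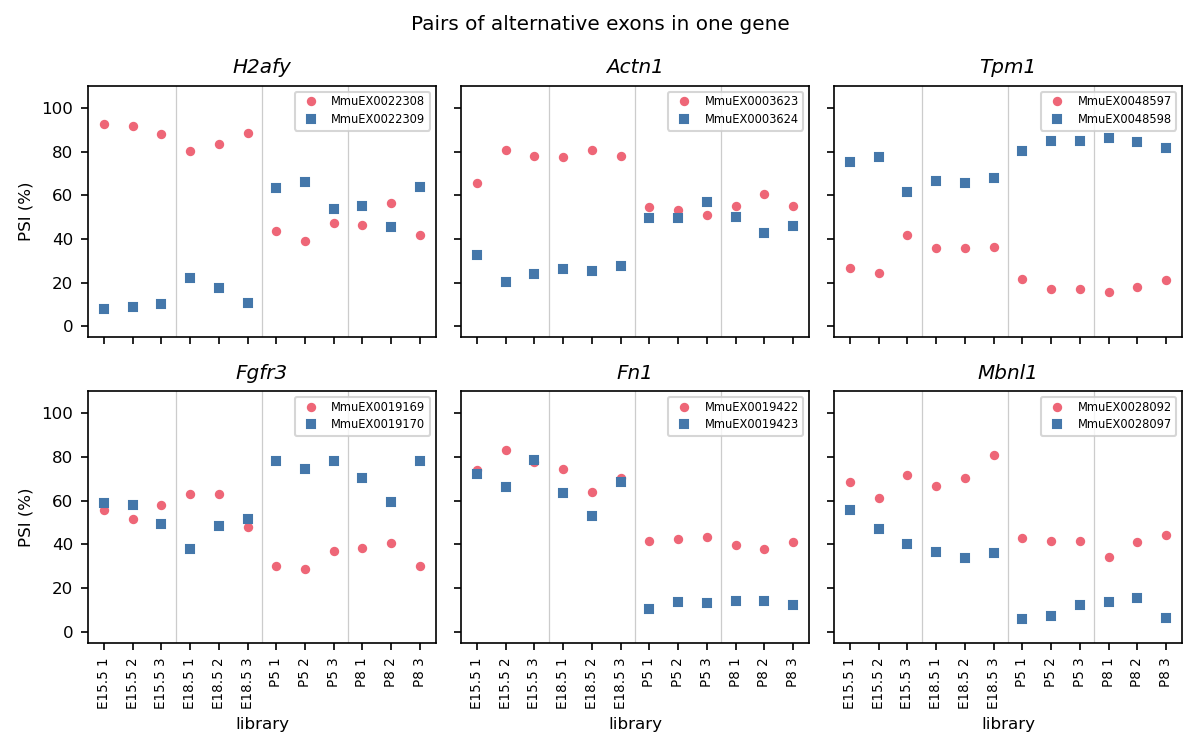
PSI in percent of 2 alternative exons in each of 6 genes, by library (replicates 1 to 3 of each time-point in order of age, divided by grey lines). In *H2afy*, *Actn1*, *Tpm1* and *Fgfr3* the exons mirror each other, with sums between 98.3% and 115% over the 12 libraries, and in *Fn1* and *Mbnl1* both exons lie lower in all 6 postnatal libraries than in any embryonic library.

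*Aspn* had 7 exons that all rose. From E18.5 to P5 they changed by 46.8 to 56.0 points, and the exon MmuEX6058339 was at 18.1, 16.5 and 11.4% at E15.5, 39.7, 31.9 and 19.1% at E18.5, then 88.1, 86.3 and 84.3% at P5 and 84.96, 78.8 and 90.05% at P8. In 3 of the 7 exons the E18.5 libraries lay above those of E15.5, in the other 4 E18.5 replicate 3 lay among them, and the P5 and P8 libraries of all 7 lay at 78.8% or above. Their PSI was correlated at r = 0.988 to 0.999 over the 12 libraries, and whether they share junction reads was not tested. *Aspn* itself rose by 2.75 on the log2 scale (standard error 0.15, edgeR FDR = 1.6e-08). It lies at chr13:49544443-49567565 on the plus strand inside the gene *Cenpp* (chr13:49464023-49652785, minus strand), and whether reads of *Cenpp* enter these events was not tested. The exons make up 7 of the 21 matrix exons and 7 of the 115 calls from E18.5 to P5. One of them, MmuEX0010850, was also called from E15.5 to E18.5 (MV 10.2), which fell to 4.01 over all pairs and to 2.77, 7.38 and 3.06 without E15.5 replicate 3 or E18.5 replicate 1 or 2. Without E18.5 replicate 3 the other 6 passed the limit in this interval, with MVs of 11.1 to 18.6, so which of the 7 were called there rests on single libraries.

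The other genes with several exons changed less or less evenly. The 4 exons of *Dnase1l1*, a relative of the DNase I gene, changed by 17.2 to 23.7 points from E18.5 to P5, and none was called in this interval with 12 libraries. Without E18.5 replicate 2 all 4 were called, with MVs of 11.2 to 18.8. That library was at 82.4% to 93.6% and lay within or above the P5 libraries in all but MmuEX0015255. The 4 exons of *Fam193b* were lowest at E18.5 or E15.5 and changed by 7.87 to 20.9 points from E18.5 to P5, none of them called, although MmuEX0018223 had an MV of 10.3 without E18.5 replicate 3. The same exon, called from E15.5 to E18.5 (MV 11.6), fell to 4.92 over all pairs and to 3.60, 4.57 and 7.05 without E15.5 replicate 3 or E18.5 replicate 1 or 2. The pair in *Atg4c*, an autophagy protease, was at 92.6% ± 6.73 and 100% ± 0 at E15.5 and 69.4% ± 6.45 and 80.9% ± 1.17 at E18.5. Both were called there (MV 11.1 and 10.8), the first at 6.102 over all pairs and at 4.33, 8.90 and 5.12 without E15.5 replicate 1 or E18.5 replicate 2 or 3. In *Ktn1*, MmuEX0025962 and MmuEX0025963 rose by 31.5 and 33.1 points from E18.5 to P5, while MmuEX0025961 changed by -17.2, which was not called but had an MV of 11.9 without P5 replicate 2. The pair in *Ppfibp1*, a liprin, changed by 13.9 and 26.04 points, with the second called. In *Arhgef1*, MmuEX0005927 went from 4.77, 4.85 and 5.48% to 38.5, 37.8 and 36.5%, with no overlap between the libraries. The second exons of *Col13a1*, *Arhgef1*, *Emsy* and *Clk4* changed by 22.9, 12.4, -9.74 and 2.51 points, and of these the first was called. In *Wnk1*, a kinase of ion transport, *Azin2*, a regulator of polyamines, *Suco* (MmuEX0002766 and MmuEX0002767) and *Nav2*, a protein of neurite growth, no exon was called from E18.5 to P5. The changes there were -18.3 and 9.04 points in *Wnk1*, 10.3 and 19.01 in *Azin2* and 7.55 and 7.45 in *Suco*. With 1 library left out, 3 of these exons passed the limit: MmuEX0052217 of *Wnk1* without E18.5 replicate 2 (MV 12.2), MmuEX0003948 of *Azin2* without E18.5 replicate 1 (MV 11.9) and MmuEX0030959 of *Nav2* without P5 replicate 1 (MV 10.7). The 3 exons of *Nav2* scattered most, with MmuEX0030954 at 0, 0 and 76.9% at E15.5, 0, 55.6 and 0% at E18.5, then 20.2, 0 and 63.1% at P5 and 54.4, 80.3 and 22.01% at P8. MmuEX0030954 was called from E18.5 to P8 (MV 11.9), although its libraries overlapped and as few as 23 reads lay behind a value.

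Some exons held a steady balance of both forms. Of the 324 exons with a mean PSI from 40% to 60%, MmuEX0023100 had the smallest range over the 12 libraries, from 56.3% to 63.7% with at least 1071 reads, and MmuEX0017508 followed with 54.3% to 63.0% and at least 1179 reads. At the limits of the rule, MmuEX0032958 had a mean PSI of 5% and was kept while MmuEX0049059 at 4.998% was not, and MmuEX0028258 at 94.998% was kept while MmuEX0017621 at 95.002% was not. The read limit alone left out 2 exons, which had 4 and 6 reads in their shallowest library, and 6 exons were kept with 10 to under 11 reads there.

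The level of a gene and the inclusion of its exon were measured on the same RNA. Of the 95 genes with a symbol and an exon called from E18.5 to P5 that could be tested, 19 (20%) were differentially expressed (edgeR, absolute log2 fold change above 1 and FDR under 0.05), beside 26.8% of the 15994 genes tested. In 12 of the 19 the gene and the exon moved in the same direction. *Fn1* rose by 1.78 on the log2 scale (standard error 0.18, edgeR FDR = 2.2e-06) while its exons fell, *Npnt* rose by 1.96 (FDR = 3.8e-08) and *Vegfa* by 1.53 (FDR = 9.3e-07) as their exons rose. For *Palm*, *Col13a1* and *Arhgef2* the log2 fold changes were -0.39, 0.30 and 0.50, all under the fold limit. *Pecam1* was at the limit (log2 fold change 1.01), and was 0.94 with library size only and 0.96, 0.99 and 0.99 without E18.5 replicate 3 or P5 replicate 1 or 2.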

How the data were processed

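RNA-seq of 12 whole-lung libraries (4 time-points, 3 littermates each) was analysed. The authors computed PSI as a percent with VAST-TOOLS (VastDB, mm10) for each event and deposited it with a quality string that holds the corrected inclusion and exclusion reads. The gene table of the authors holds deposited counts, made per the labels with TopHat2 2.1.1, Bowtie2 2.3.4 and HTSeq 0.10.0 on mm10. A deposited CPM table was not used and CPM here are computed from the counts. Inclusion and exclusion reads are corrected for mappability.

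The MV was taken from 2000 draws per library of Beta distributions with 1 added to the inclusion and exclusion reads, at a probability of 0.95, with libraries of 2 time-points matched by replicate number. Limma 3.58.1 was fitted to log2((inclusion + 0.5)/(exclusion + 0.5)) with precision weights, and gene counts to edgeR 4.0.16 (quasi-likelihood, TMM, at least 1 CPM in at least 3 libraries, DESeq2 1.42.0 as alternative), both with Benjamini-Hochberg adjustment. On simulated reads for 4411 exons, of which 200 changed by 30 points from E18.5 to P5, MV called 144 with 0 false calls and limma 194 with 5. The simulation gave all exons the same setting of spread between libraries and no outlying library, and limma was fitted to these exons alone. Its counts are therefore no error rates for the measured data.

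The members and all lists were chosen with earlier results of these data known. Named exons were the 12 largest rises and 12 largest falls from E18.5 to P5 among called exons without overlap of libraries (1 a gene), up to 4 exons with the largest change from E18.5 to P5 in each role list among those called in any comparison, the 5 with the largest change among those called in each adjacent interval (E15.5 to E18.5 and P5 to P8), every exon of a gene with 2 or more, exons at the limits of the rule and the 2 steadiest near even inclusion. The placed exons were added after their values were seen, because their sequence could be found: the exon was taken from GENCODE M21 as the alternative exon (in *Pecam1*, the only exon) between the exons with the RT-PCR primers of the study. Alternatives were other MV limits, reads, junction scores, all pairs of libraries, a replicate block, weights, event sets, scalings and leaving out each library. Introns and the protein sequences were not analysed here, and 1 placed exon and 1 role list are not reported here.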

Additional observations from a re-analysis of the deposited data

How the results depend on the processing

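Settings were changed one at a time. The number of exons, 4411, was 4161 with at least 20 reads in every library and 2488 with a mean PSI from 10 to 90. It stayed 4411 with exons of identical reads counted once. The limit on the MV moved the counts by construction: in the order E15.5–E18.5, E18.5–P5, P5–P8, E15.5–P5, E15.5–P8 and E18.5–P8, an MV of at least 5 gave 69, 262, 24, 307, 298 and 254 exons, and an MV of at least 20 gave 0, 37, 0, 43, 44 and 36. With only exons whose inclusion junctions were scored as balanced in every library, 1043 of the 4411, they were 3, 38, 1, 42, 41 and 38. With 1 library left out, the counts were 15 to 30, 124 to 157, 8 to 12, 146 to 169, 155 to 183 and 127 to 167 in the same order, all above the values with 12 libraries; the cause was not tested.

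Nothing in the labels links libraries of the same replicate number. Deviations from the mean of the time-point were correlated at -0.033 to 0.049 between same-numbered libraries of different time-points and at -0.044 to 0.055 between others. These deviations hold counting error, so a weak link could be missed. The MV computed here matches libraries by number all the same. With no replicate block, over all 9 pairs of libraries, it called 5, 101, 4, 120, 116 and 98 exons. Limma with a replicate block called 0 exons in E15.5–E18.5 and in P5–P8, 116 in E18.5–P5 and 400 for postnatal against embryonic.

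In limma, leaving out 1 library gave 70 to 148 exons in E18.5–P5, 105 to 186 in E15.5–P5, 97 to 166 in E15.5–P8, 64 to 136 in E18.5–P8, 285 to 418 for postnatal against embryonic and 0 in the other intervals, and no weights gave 1 exon in E15.5–E18.5. A fit over all 331318 events gave 233 in E18.5–P5, 372 in E15.5–P5, 350 in E15.5–P8, 251 in E18.5–P8 and 670 for postnatal against embryonic; the cause was not tested. Leaving out the 4 libraries with high sums of thymus and T cell or of cardiac markers, chosen after seeing the data, gave 28 in E15.5–P5, 15 in E15.5–P8, 38 in E18.5–P8 and 127 for postnatal against embryonic and 700 exons without overlap. With 1 library left out, the exons without overlap numbered 354 to 399 and the median absolute changes 4.02 to 4.61, 5.34 to 5.755 and 3.415 to 3.73 points in the 3 adjacent intervals. The 19 differentially expressed genes were 17 to 20 in each alternative. No named exon or gene that was called changed direction in any alternative. Depth limits what can be called, and 10 of the 1102 exons with the fewest reads were called in E18.5–P5.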
